A study of Mus musculus with 6 samples.

Results

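Autophagy encloses cytoplasm in a double membrane, the autophagosome, and delivers it to the lysosome for breakdown. The ULK1 kinase complex starts the process, a lipid kinase complex around VPS34 and Beclin 1 marks the membrane, and a pair of ubiquitin-like conjugation reactions then attach the small ATG8 proteins (LC3 and GABARAP) to the growing membrane, where they bind cargo receptors. In AT2 cells, the surfactant-producing cells of the alveolus from which its epithelium is renewed, autophagy is also known in mice to contribute to lamellar bodies, the lysosome-related organelles that store surfactant.

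The 34 autophagy genes described here were fixed by name, from initiation to cargo receptors, and all 34 were found among the 24224 genes of the deposited count table. AT2 cells of naturally aged wild-type C57BL/6J mice (C57/6J in the labels) were compared at 24 m and at 3 m, with 3 libraries per age. The cells were sorted from digested lungs by flow cytometry, with CD45 and CD31 absent and CD326 and MHCII present, and each library came from a pool of several mice. No other treatment or genotype was involved, and the spread between libraries is the spread between pools. The comparison asks which genes of the pathway differ in transcript level between old and young AT2 cells.

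Every autophagy gene was detected in every library, with counts of 166 to 17568, and all 34 passed the filter on low counts that left 14899 genes for the test. No autophagy gene changed between 24 m and 3 m past the threshold, set at a change of more than 1 log2 unit in either direction with an adjusted p (Benjamini-Hochberg, edgeR's quasi-likelihood test) under 0.05. This test called 0 of the 14899 genes (0.0%), and DESeq2 called 0 of the 34 autophagy genes and 314 of 17978 genes (1.75%). At an unadjusted p under 0.05 edgeR gave 1 of 34 autophagy genes, against 873 of 14899 genes tested (5.86%), and DESeq2 gave 1 of 34, against 7.4% of the genes it tested. The log2 fold changes of the 34 genes lay between -0.80 and 0.67, with 20 above 0 and 14 below 0, and their median was 0.06, where the median over all genes tested was 0.05. Their adjusted p in edgeR lay between 0.828 and 0.997. The 95% interval of the fold change lay inside 1 log2 unit of 0 for 19 of the 34 genes, so that for the other 15 genes a change of this size in at least 1 direction was within the interval.

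The ages did not overlap for 8 of the 34 genes (23.5%), against 15.1% of all genes tested. All 24 m libraries lay above all 3 m libraries for *Gabarapl1*, *Atg4b* and *Atg4d* (8.82% of the autophagy genes, against 9.74% of all genes tested). All 24 m libraries lay below all 3 m libraries for *Pik3c3*, *Atg3*, *Atg12*, *Atg5* and *Gabarapl2* (14.7%, against 5.41%). No test was made of these shares. After a correction of each library for the GC content of the transcripts, the ages did not overlap for 4 of the 34 genes, against 16.6% of all genes. These were *Gabarapl1*, *Atg4b*, *Atg4d* and *Atg12*. The GC correction also took the place of the scaling between libraries used in the main fit, so both differ between the fits. Without 3 m replicate 2, in the main scaling, the ages did not overlap for 9 (26.5%), against 26.2%.

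**Figure D1:**
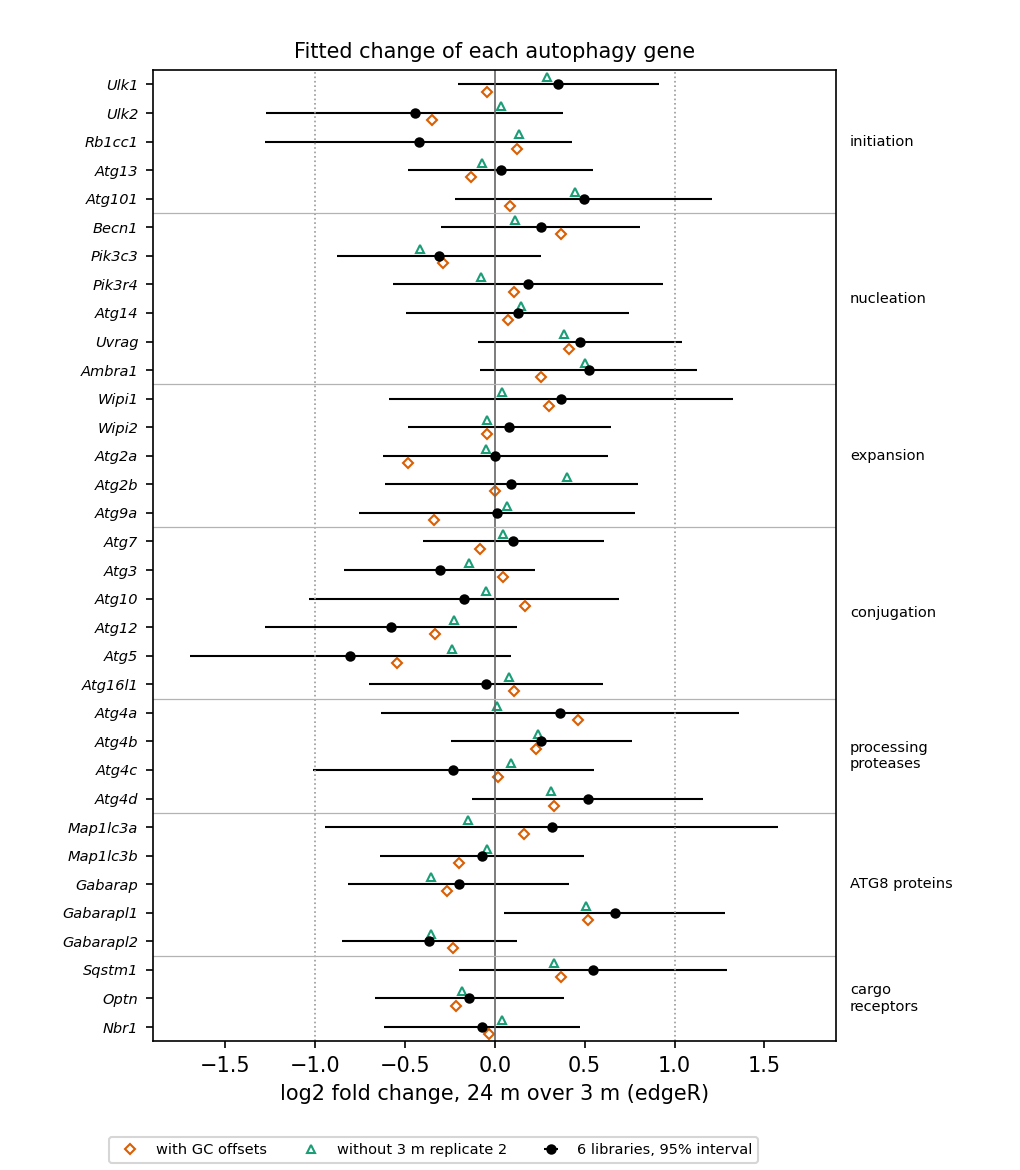
Fitted log2 fold change of each of the 34 autophagy genes, 24 m over 3 m, in edgeR. Black points and lines are the fit to 6 libraries with its 95% interval, orange diamonds the fit with GC offsets, green triangles the fit without 3 m replicate 2, and dotted lines mark a log2 change of 1 in size. The values lie between -0.80 (*Atg5*) and 0.67 (*Gabarapl1*), and the interval excludes 0 for *Gabarapl1* only.

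The libraries held 28827930 to 32394985 counts. Replicate 2 at 3 m stood apart from the rest: it was the highest or the lowest library for 77.9% of all genes tested and for 26 of the 34 autophagy genes, being the highest for 10 and the lowest for 16. None of the 34 was among the 693 genes with 0 counts in this library and at least 20 in each of the others. The 8 AT2 markers, *Sftpc*, *Sftpb* and *Lamp3* among them, were abundant at both ages and summed to 147937 to 156685 CPM at 24 m and 134315 to 221278 CPM at 3 m, where CPM are counts scaled to a common library total by TMM. Of these 8, 7 had a log2 fold change below 0 and 3 were lower in every 24 m library (37.5%, against 5.41% of all genes tested), and none was called by edgeR or DESeq2. Of 8 leukocyte markers, 7 were tested and all 7 had a positive log2 fold change, against 53.8% of all genes tested. The 8 markers summed to 260.1 to 419 CPM at 24 m and 267 to 326 CPM at 3 m, most of it from *Lcp1*. *Ptprc*, which encodes CD45, was at 3.44, 9.59 and 2.38 CPM at 24 m, against 0, 0 and 0.19 CPM at 3 m, and *Itgb2*, *Tyrobp* and *Cd53* were at 0 in every 3 m library. Endothelial markers summed to 6.99 to 20.2 CPM at 24 m and 3.03 to 11.0 CPM at 3 m, and airway markers to 520.4 to 1122 CPM at 24 m and 298 to 754 CPM at 3 m. Immediate early and heat shock genes that respond to cell dissociation summed to 14646, 14373 and 6890.1 CPM at 24 m, against 5792, 485 and 3049 CPM at 3 m. Of these genes, 10 of 10 had a log2 fold change above 0, against 53.8% of all genes tested. The ages did not overlap for 8 of 10, all higher at 24 m, against 9.74% of all genes tested. DESeq2 called 4 of 8 leukocyte markers, 1 of 6 endothelial markers, 2 of 6 airway markers and 5 of 10 dissociation genes. Each was higher at 24 m, where DESeq2 called 1.59% of 17978 genes higher, and edgeR called none of these markers. The part of these markers in the results below was not tested. In sorted bulk cells, fewer cells of a type that expresses a gene and less RNA per cell cannot be told apart.

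**Figure D2:**
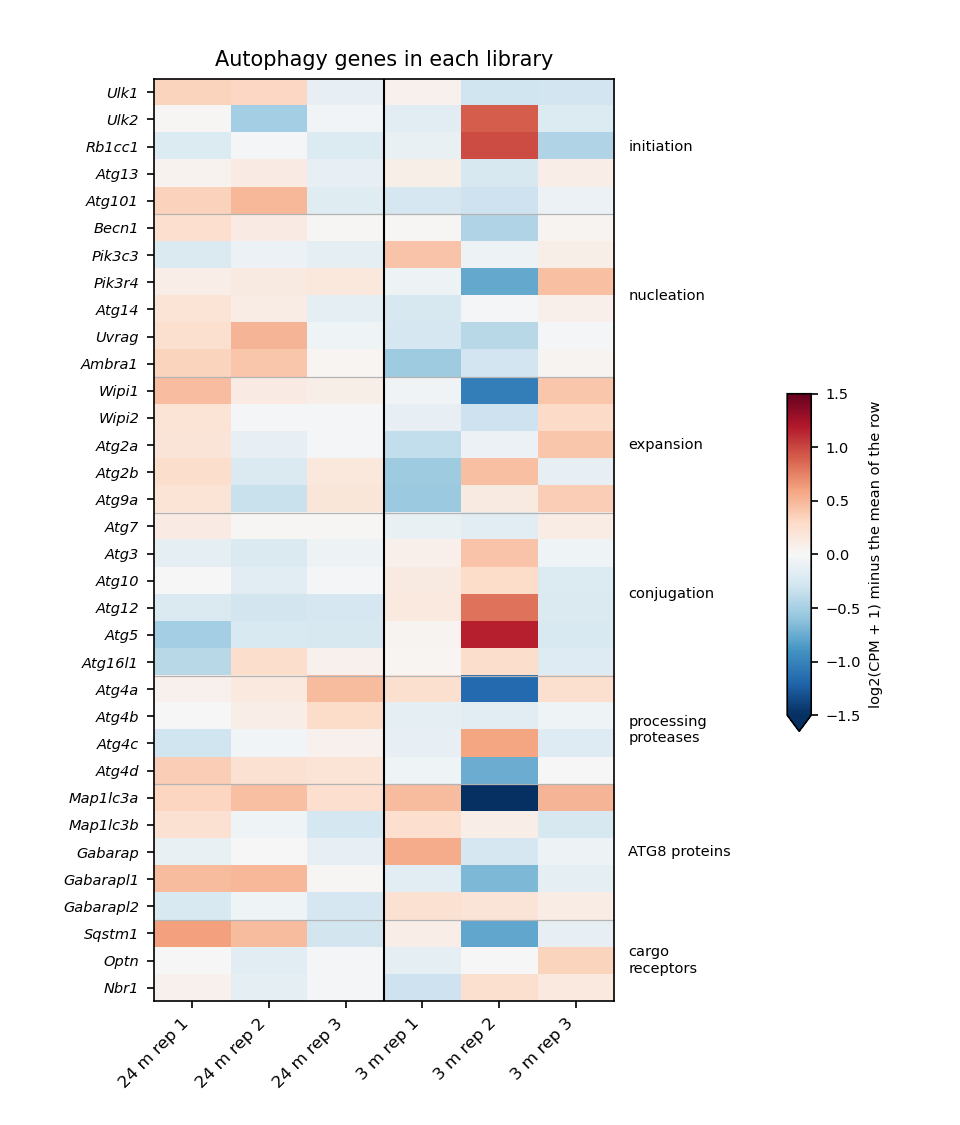
Level of each autophagy gene (rows, ordered by role) in each library (columns, 24 m at the left), as log2(CPM + 1) minus the mean of the row. The strongest colors stand in 3 m replicate 2, which was the highest or lowest library for 26 of the 34 genes.

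Transcript levels of different genes were compared per length, as the deposited FPKM averaged over the 6 libraries. Transcripts of the ATG8 proteins and of a cargo receptor were the most abundant. The ATG8 gene *Gabarap* was at 147 FPKM, the cargo receptor *Sqstm1* at 122 FPKM and the ATG8 gene *Map1lc3a* at 95.5 FPKM, followed by *Map1lc3b* at 32.2 FPKM. The lowest was *Atg16l1*, at 3.07 FPKM. The median of the 34 genes was 7.09 FPKM, against 3.75 FPKM over the genes tested, and 32 of the 34 lay above the median of the genes tested. FPKM here divides by the union of all exons of a gene (the length in the values equalled that of GENCODE vM21 within 1 base for 33 of 34 genes, *Atg4a* being the exception). The order of genes rests on this length.

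**Figure D3:**
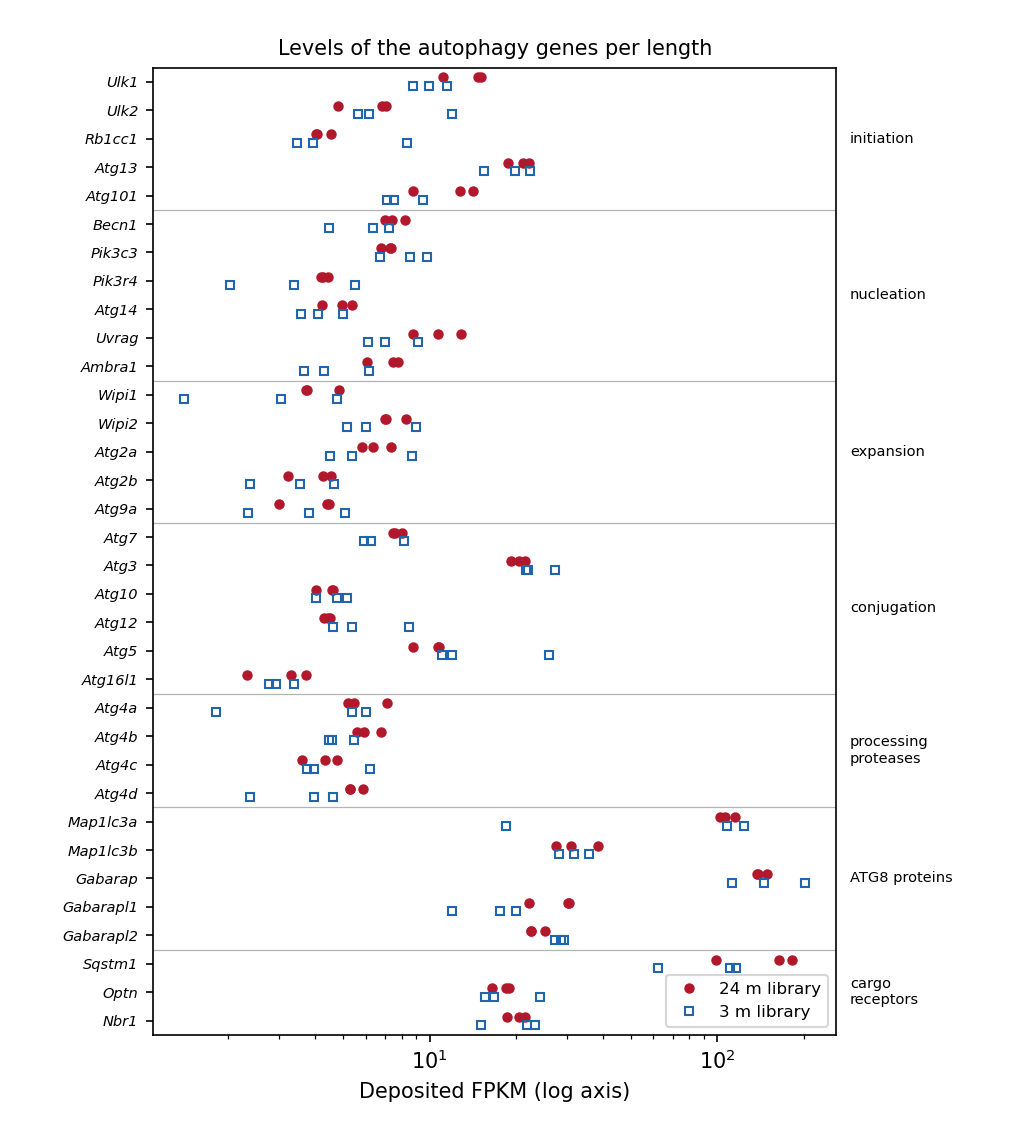
Level of each autophagy gene per length, as deposited FPKM on a log axis, with 1 point per library (24 m red, 3 m blue) and the genes grouped by role. *Gabarap*, *Sqstm1* and *Map1lc3a* stand highest, and 3 m replicate 2 lies far below the other libraries for *Map1lc3a*.

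The initiation complex joins the kinases ULK1 and ULK2 to the scaffolds FIP200 (*Rb1cc1*), ATG13 and ATG101. None of the 5 genes passed the threshold, and their log2 fold changes lay between -0.44 and 0.49. The most abundant per length was *Atg13*, whose product bridges the kinase to its partners. *Atg13* was at 89.9, 94.6 and 79.1 CPM at 24 m and at 92.0, 73.0 and 92.7 CPM at 3 m. The libraries of both ages were interleaved, and the log2 fold change was 0.03 with an SE of 0.23 (-0.13 after the GC correction). *Ulk2* and *Rb1cc1*, chosen here after their values were seen, had the most negative log2 fold changes of the group (-0.44 and -0.42). *Ulk2* was at 41.2, 28.2 and 39.5 CPM at 24 m and at 35.9, 77.2 and 35.1 CPM at 3 m. *Rb1cc1* was at 57.8, 65.4 and 57.7 CPM at 24 m and at 61.4, 132 and 48.5 CPM at 3 m. In both genes a single library, 3 m replicate 2, stood far above the other 5, and without it the log2 fold changes were 0.04 and 0.14.

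Of the nucleation genes, *Pik3c3* encodes VPS34, the kinase that makes phosphatidylinositol 3-phosphate, with the partners *Pik3r4* (VPS15), *Becn1* (Beclin 1), *Atg14* and *Uvrag*, and *Ambra1* encodes a regulator of Beclin 1. None of the 6 passed the threshold, and 5 had a log2 fold change above 0 (5 also after the GC correction, 4 without 3 m replicate 2), within a range of -0.31 to 0.52. *Pik3c3* was the exception in sign, at 29.4, 32.2 and 31.3 CPM at 24 m, against 46.4, 32.4 and 36.5 CPM at 3 m. The ages did not overlap, but the highest 24 m value and the lowest 3 m value lay within 1 CPM. Between the ages, *Pik3c3* differed by a log2 fold change of -0.31 ± 0.25 (SE, 3 libraries per age), with an adjusted p of 0.853 in edgeR. The most abundant of the group per length was *Uvrag*, at 94.2, 114 and 76.2 CPM at 24 m, against 66.9, 59.7 and 78.3 CPM at 3 m. Its mean was higher at 24 m, but 24 m replicate 3 lay below 3 m replicate 3, and the log2 fold change was 0.47 with an SE of 0.25 and a 95% interval of -0.10 to 1.04. *Uvrag* shares 1589 exon bases with an antisense gene and *Becn1* 3104 bases with *Cntd1* on the opposite strand in GENCODE vM21. Whether reads were counted by strand was not stated, so such reads cannot be told apart.

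The expansion genes serve the growth of the membrane. WIPI1 and WIPI2 bind the lipid made by VPS34, ATG2A and ATG2B carry lipids between membranes, and ATG9A is a membrane protein that mixes lipids between the leaflets. None of the 5 passed the threshold, and their fitted values lay between 0.00 (*Atg2a*) and 0.37 (*Wipi1*), with 3 of the 5 below 0 after the GC correction. The most abundant per length, *Wipi2*, was at 85.0, 72.3 and 71.8 CPM at 24 m and at 67.5, 58.9 and 90.2 CPM at 3 m. The 3 m libraries spanned a wider range that included all 24 m values, and the log2 fold change was 0.08 ± 0.25 (SE). After the GC correction it was -0.04, so no direction is given for *Wipi2*.

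In the conjugation reactions ATG7 activates both ATG12 and the ATG8 proteins, ATG10 passes ATG12 on to ATG5, ATG3 passes the ATG8 proteins on to the membrane lipid, and the complex of ATG12, ATG5 and ATG16L1 directs this last step. None of the 6 genes passed the threshold. A log2 fold change below 0 was found for 5 of 6 (median -0.24), but for 3 of 6 after the GC correction, and the ages did not overlap for 3 of 6, all lower at 24 m (against 5.41% of all genes tested). After the GC correction only 1 of the 6, *Atg12*, was without overlap. *Atg5* had the most negative fold change of all 34 genes. It was at 20.1, 24.7 and 24.4 CPM at 24 m, against 29.9, 66.3 and 24.7 CPM at 3 m. A single 3 m library, replicate 2, stood high, and 3 m replicate 3 lay within 0.1 CPM of the highest 24 m library. For *Atg5* the log2 fold change was -0.80 ± 0.39 (SE) with a 95% interval of -1.70 to 0.09 (adjusted p = 0.828, edgeR), and without 3 m replicate 2 it was -0.24.

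*Atg12* was at 33.8, 32.6 and 33.1 CPM at 24 m, against 43.9, 70.6 and 33.9 CPM at 3 m. The 24 m libraries were close to each other (mean 33.2 ± 0.613 CPM, SD, n = 3), the 3 m libraries were far apart (49.5 ± 19.0 CPM, SD, n = 3), and the lowest 3 m library was next to the highest 24 m library. Its log2 fold change was -0.58 ± 0.31 (SE) with an adjusted p of 0.828 in edgeR, and it was -0.23 without 3 m replicate 2 and -0.33 after the GC correction. *Atg3*, the most abundant of the group per length, was at 62.6, 59.5 and 65.2 CPM at 24 m, against 72.6, 93.3 and 65.8 CPM at 3 m. Replicate 2 at 3 m was again the highest library, and the gap between the ages was under 1 CPM. For *Atg3* the log2 fold change was -0.31 ± 0.23 (SE, adjusted p = 0.852, edgeR). It was -0.15 without 3 m replicate 2 and 0.05 after the GC correction, which turned its direction. The other 3 genes, *Atg7*, *Atg10* and *Atg16l1*, had log2 fold changes between -0.17 and 0.10.

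Promoter sequences of the conjugation genes *Atg3* and *Atg5* are shown because both hold the E-box CACGTG and were lower in every 24 m library before, but not after, the GC correction. The E-box is the palindrome that TFEB, a regulator of lysosome and autophagy genes, and other factors of its family can bind. RefSeq windows of 250 bases before to 50 bases after the start (GRCm38.p6) were matched for 28 of the 34 genes, in 31 windows. *Rb1cc1*, *Becn1*, *Pik3c3*, *Atg12*, *Atg16l1* and *Map1lc3a* were not matched. Capitals mark the E-box and its extended form TCACGTGA, the core of the CLEAR element, in windows on the + strand at chr16:45158579-45158878 for *Atg3* and chr10:44268089-44268388 for *Atg5*.
Atg3: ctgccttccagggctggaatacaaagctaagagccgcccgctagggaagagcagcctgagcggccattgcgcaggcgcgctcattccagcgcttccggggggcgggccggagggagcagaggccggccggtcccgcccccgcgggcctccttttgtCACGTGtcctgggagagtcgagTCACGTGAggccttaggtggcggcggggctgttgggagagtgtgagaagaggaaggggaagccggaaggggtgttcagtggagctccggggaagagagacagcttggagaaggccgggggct
Atg5: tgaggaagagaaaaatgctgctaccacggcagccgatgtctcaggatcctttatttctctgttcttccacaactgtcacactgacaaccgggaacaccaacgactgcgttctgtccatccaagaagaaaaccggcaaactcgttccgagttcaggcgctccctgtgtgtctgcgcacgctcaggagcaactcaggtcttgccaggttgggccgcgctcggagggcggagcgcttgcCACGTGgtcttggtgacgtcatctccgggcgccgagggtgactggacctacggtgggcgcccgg

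On either strand, CACGTG was found in 4 of the 31 windows (12.9%), those of *Atg3*, *Atg5*, *Atg7* and *Atg14*, against 7.15% of 32851 RefSeq windows of the same length. TCACGTGA, which contains CACGTG, was found in *Atg3* alone (3.23%, against 0.974%). Of the other motifs searched, the FOXO site TGTTTAC was in 0 of the 31 windows (3.65% of all) and the AP-1 site TGANTCA in 0 (7.81% of all). The core of the antioxidant response element, TGACNNNGC, was in 3 windows (9.68%, against 12.4%) and the CCAAT box in 9 (29.0%, against 37.4%). *Atg7*, with an E-box, was at 54.6, 50.8 and 50.8 CPM at 24 m and at 46.5, 44.5 and 54.3 CPM at 3 m, and *Atg14*, also with an E-box, at 22.7, 21.1 and 17.6 CPM at 24 m and at 16.3, 19.2 and 20.6 CPM at 3 m. The ages overlapped in both, so that of the 4 genes with an E-box only *Atg3* and *Atg5* were lower in every 24 m library. After the GC correction the ages overlapped in these 2 genes as well, and the log2 fold changes were 0.05 and -0.54. These matches are a description of the letters in the windows.

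The 4 processing proteases ATG4A to ATG4D cut new ATG8 proteins behind a glycine, which conjugation needs, and later free them from the membrane. None of the 4 passed the threshold, and 3 of 4 had a log2 fold change above 0 (median 0.31). After the GC correction, and also without 3 m replicate 2, 4 of 4 were above 0. The ages did not overlap for *Atg4b* and *Atg4d*, both higher at 24 m (2 of 4, against 9.74% of all genes tested). *Atg4b* was the most abundant of the group per length on the deposited FPKM of 6 libraries, with a mean of 5.47 FPKM against 5.16 FPKM for *Atg4a*, but without 3 m replicate 2 *Atg4a* was the higher, with 5.83 FPKM against 5.67 FPKM. *Atg4b* was at 45.1, 48.0 and 54.3 CPM at 24 m, against 40.3, 40.0 and 42.9 CPM at 3 m. The 3 m libraries, replicate 2 included, were within 3 CPM of each other, and the separation also stood without replicate 2 and after the GC correction. The log2 fold change of *Atg4b* was 0.26 ± 0.22 (SE, adjusted p = 0.858, edgeR), with a 95% interval of -0.24 to 0.76. *Atg4d* was at 41.6, 37.8 and 37.0 CPM at 24 m, against 30.6, 18.7 and 32.1 CPM at 3 m, with replicate 2 the lowest. Its log2 fold change was 0.52 ± 0.28 (SE, adjusted p = 0.828, edgeR), and 0.31 without 3 m replicate 2. *Atg4d* shares 1405 exon bases with *Kri1* on the opposite strand. *Atg4a*, which was also the highest of the group when GENCODE lengths were used, was at 15.3, 16.1 and 20.6 CPM at 24 m and at 17.2, 5.91 and 17.2 CPM at 3 m. Its pseudogene *Atg4a-ps* took 0 to 14 counts per library, against 166 to 692 for *Atg4a*.

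The ATG8 proteins end in a short tail that ATG4 removes to expose the glycine. The ends of 4 of their coding sequences (GENCODE vM21 transcripts, GRCm38, sense strand) are shown to let the family be compared at the cut. Capitals mark the codon of that glycine, and the last codon is the stop.
Map1lc3a: tcccaagaaaccttcGGCttctga
Gabarap: gatgaaagcgtctatGGTctgtga
Gabarapl1: gatgaaagtgtctatGGAaaatga
Gabarapl2: ggagagaacacttttGGCttctga

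The glycine is codon 120 in *Map1lc3a* and codon 116 in the GABARAP genes, and it is followed by 1 codon before the stop in all 4 genes. The longest stretch of bases shared exactly between transcripts of any 2 of these 4 genes was 17 bases, between *Gabarap* and *Gabarapl1*.

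Within this family *Gabarapl1* and *Gabarapl2* lay in opposite directions with no overlap of the ages, and none of the 5 genes passed the threshold. *Gabarapl1* was at 59.2, 60.1 and 42.9 CPM at 24 m, against 37.6, 26.1 and 38.4 CPM at 3 m. All 24 m libraries were higher, 24 m replicate 3 being nearest to the 3 m range. Replicates 1 and 2 at 24 m were the highest libraries and 3 m replicate 2 the lowest, as in the dissociation genes, whose part in this result was not tested. The same libraries were at the top and at the bottom for *Ulk1*, *Atg101*, *Becn1*, *Uvrag*, *Atg4d* and *Sqstm1*. Replicate 2 at 3 m was also the lowest library for 47.1% of all genes tested. The log2 fold change of *Gabarapl1* was 0.67 with an SE of 0.27 and a 95% interval of 0.05 to 1.28, the highest of the 34 genes. It was the gene counted above at an unadjusted p under 0.05, which edgeR gave to 5.86% of all genes, and its adjusted p was 0.828 in edgeR and 0.451 in DESeq2. The fold change was 0.51 without 3 m replicate 2 and 0.52 after the GC correction. *Gabarapl1* shares 570 exon bases with *1700101I11Rik* on the opposite strand.

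*Gabarapl2* was at 51.0, 57.6 and 50.5 CPM at 24 m, against 70.8, 68.9 and 64.8 CPM at 3 m. Replicate 2 at 3 m lay between the other 3 m libraries. The highest 24 m library was at 57.6 CPM and the lowest 3 m library at 64.8 CPM, a gap similar to the range within each age. The means were further apart than the SD of either age (24 m mean 53.0 ± 3.95 CPM, 3 m mean 68.2 ± 3.07 CPM, SD, n = 3 each). For *Gabarapl2* the log2 fold change was -0.36 ± 0.21 (SE), with an adjusted p of 0.828 in edgeR and 0.634 in DESeq2. It was -0.35 without 3 m replicate 2, but after the GC correction, with a log2 fold change of -0.23, the ages overlapped.

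The more abundant ATG8 genes overlapped between the ages. *Gabarap* was at 247, 268 and 246 CPM at 24 m and at 396, 224 and 254 CPM at 3 m. Here 3 m replicate 1 was the library that stood high, and the log2 fold change of -0.20 ± 0.27 (SE) became 0.09 without it. *Map1lc3b*, which encodes the LC3 protein most used as a marker of autophagosomes, was at 282, 229 and 199.6 CPM at 24 m and at 286, 258 and 203 CPM at 3 m, and its log2 fold change was -0.07 ± 0.25 (SE). *Map1lc3a* was chosen for description after its values were seen. It was at 122, 133 and 116 CPM at 24 m and at 135, 23.6 and 139 CPM at 3 m, so that 3 m replicate 2 lay far below all other libraries. Its log2 fold change was 0.32 ± 0.55 (SE) with all libraries and -0.15 without 3 m replicate 2, when all 24 m libraries lay below the remaining 3 m libraries.

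As shares of the summed FPKM of the 5 ATG8 genes, *Gabarapl1* made up 9.01%, 8.69% and 7.07% at 24 m, against 4.49%, 5.94% and 5.79% at 3 m. Its share was higher in every 24 m library. *Gabarapl2* made up 6.73%, 7.20% and 7.20% at 24 m, against 7.31%, 13.6% and 8.45% at 3 m, and *Gabarap* 42.6 ± 1.59% at 24 m and 49.7 ± 7.09% at 3 m. The sum itself was 335, 350.3 and 313 FPKM at 24 m and 392, 202 and 346 FPKM at 3 m, and the ages overlapped. Shares add up to a fixed total, so a higher share of 1 gene lowers the others.

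**Figure D4:**
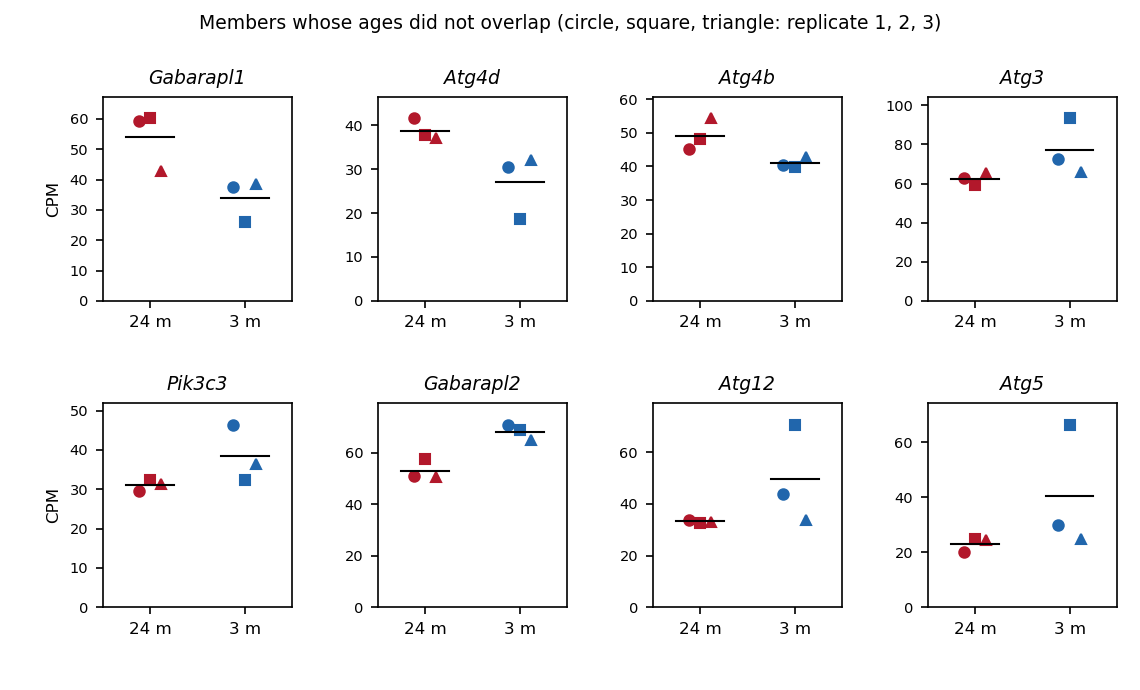
CPM in each library (circle, square and triangle for replicates 1, 2 and 3; bars are means) of the 8 autophagy genes whose ages did not overlap, 24 m in red at the left and 3 m in blue. In *Atg4b* and *Gabarapl2* the libraries of each age lie close together, and in *Atg12* and *Atg5* the distance between the means comes mostly from 3 m replicate 2, at 70.6 and 66.3 CPM.

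Cargo receptors bind ubiquitin-marked cargo and the ATG8 proteins at the same time. None of the 3 passed the threshold. *Sqstm1*, which encodes p62 and is the most abundant of them per length, was at 593, 537 and 320.0 CPM at 24 m, against 414, 225 and 355 CPM at 3 m. Replicates 1 and 2 at 24 m stood above all other libraries, while 24 m replicate 3 lay below 2 of the 3 m libraries. For *Sqstm1* the log2 fold change was 0.54 ± 0.33 (SE) with a 95% interval of -0.20 to 1.29 (adjusted p = 0.828, edgeR), and 0.33 without 3 m replicate 2. The dissociation genes had the same pair of libraries, 24 m replicates 1 and 2, at the top and the same library, 3 m replicate 2, at the bottom. That library was the lowest for 47.1% of all genes tested. The part of the dissociation genes in this result was not tested. *Sqstm1* shares 580 exon bases with *Mrnip* on the opposite strand. *Optn* and *Nbr1* had log2 fold changes of -0.14 and -0.07.

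The spread between libraries was smaller at 24 m than at 3 m. The coefficient of variation had a median of 10.4% at 24 m and 20.5% at 3 m over the 34 genes, against 18.6% at 24 m and 45.9% at 3 m over all genes tested. It was larger at 3 m for 25 of the 34 autophagy genes and for 83.0% of all genes tested. The deviation of 3 m replicate 2 from the other 3 m libraries, as a difference of log2(CPM + 1), went with the GC content of the longest transcript. Across the 34 genes, which all come from this library, Pearson's r was -0.54, where it was -0.51 across 14852 genes. Without *Map1lc3a* and *Rb1cc1*, the genes with the most extreme GC content (63.1% and 39.1%), r was -0.33. Genes are not independent replicates, and no test was made. *Rb1cc1*, *Atg5*, *Ulk2* and *Atg12*, with GC contents of 39.1%, 44.6%, 47.0% and 44.3%, were the genes with the highest levels relative to the other 3 m libraries, by 1.25, 1.25, 1.10 and 0.84 on the log2 scale. *Map1lc3a* was lowest, with -2.49, followed by *Atg4a*, with -1.40 at a GC content of 42.2%.

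**Figure D5:**
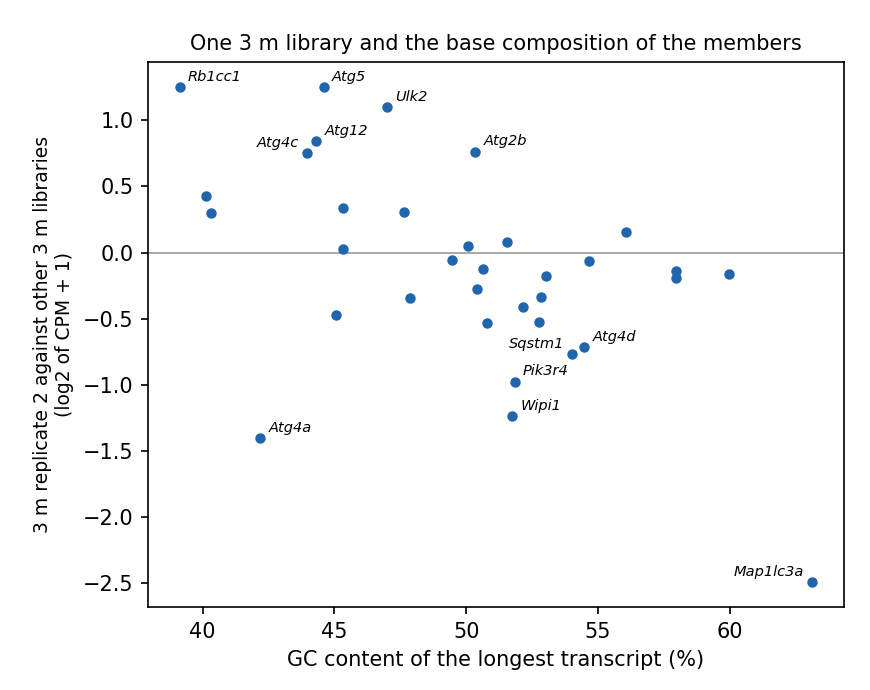
Deviation of 3 m replicate 2 from the other 3 m libraries, in log2(CPM + 1), against the GC content of the longest transcript, 1 point per autophagy gene. Genes with low GC content lie mostly above 0 and genes with high GC content mostly below it (r = -0.54 over 34 genes), and *Atg4a* departs from this.

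Beyond the 34 genes, 52 other genes of the pathway were counted and 50 of them were tested. The filter on low counts left out *Rubcnl* and *Atg9b*. *Atg9b*, near the floor, was at 0.37, 1.54 and 0.15 CPM at 24 m and at 0 in every 3 m library (adjusted p = 0.133, DESeq2). With all libraries none of the 52 was called by edgeR or DESeq2. At an unadjusted p under 0.05 in edgeR were 3 of the 50 (6.0%, against 5.86% of all genes tested), all lower at 24 m. The ages did not overlap for 4 of the 50 (8.0%, against 15.1% of all genes tested), of which *Ncoa4*, the ferritin receptor, was higher at 24 m and *Tmem41b*, *Bnip3l* and *Rtn3* were lower. After the GC correction the ages did not overlap for 9 of the 50 (18.0%, against 16.6%), and without 3 m replicate 2 for 10 of the 50 (against 26.2%). *Ncoa4* was at 7.29, 8.55 and 7.82 CPM at 24 m, against 2.37, 7.02 and 3.16 CPM at 3 m. Its 3 m replicate 2 lay close below the 24 m libraries, and the log2 fold change was 0.91 ± 0.53 (SE, adjusted p = 0.828, edgeR). Without 3 m replicate 2 the log2 fold change of *Ncoa4* was 1.51 in edgeR (adjusted p = 0.147). In DESeq2 without this library *Ncoa4* passed the threshold (adjusted p = 0.0353). That fit called 455 genes over the whole table, and their percent was not counted. None of the other pathway genes outside the 34 passed the threshold under any alternative. *Bnip3l*, a mitophagy receptor, was at 93.1, 109 and 96.5 CPM at 24 m, against 116, 239 and 112 CPM at 3 m. *Rtn3*, a receptor for breakdown of the endoplasmic reticulum, was at 158, 169 and 169 CPM at 24 m, against 213, 299.7 and 184 CPM at 3 m. In both genes 3 m replicate 2 was the highest library, and without it the log2 fold changes were -0.20 and -0.26. *Tmem41b*, a lipid scramblase of the endoplasmic reticulum, was at 51.2, 64.6 and 60.5 CPM at 24 m, against 79.0, 184 and 67.8 CPM at 3 m. *Lamp2*, a lysosomal membrane protein, was at 314, 324 and 373 CPM at 24 m, against 489.8, 1586 and 365 CPM at 3 m. *Fundc1*, a mitophagy receptor, was at 27.7, 31.8 and 35.8 CPM at 24 m, against 43.3, 164 and 35.3 CPM at 3 m. In all 3 genes 3 m replicate 2 stood far above the others. Their log2 fold changes were -0.91, -1.27 and -1.35 with all libraries and -0.32, -0.34 and -0.30 without it, and their adjusted p was 0.828 in edgeR. *Tmem41b* was still lower in every 24 m library without 3 m replicate 2, and also after the GC correction (log2 fold change -0.50). The other genes with the smallest p of their lists were *Vmp1* (-0.67), *Atg16l2* (0.75), *Lamp1* (-0.32), *Tecpr1* (0.48), *Bnip3l* (-0.65) and *Rtn3* (-0.49), with log2 fold changes in parentheses. None of these 6 passed the threshold.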

How the data were processed

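RNA of sorted AT2 cells was sequenced in 6 libraries, 3 per age, each from pooled mice. The authors deposited whole-number counts per gene, with no normalization, and FPKM values. Per the submitters' processing notes, featureCounts and HISAT2 were used with GRCm39, and DESeq2 is listed. The versions, the annotation release, the strand setting and the treatment of reads that map to several genes are not given in the sources used here. The deposited FPKM were scaled by the authors to gene length and counted fragments.

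Counts were scaled by TMM, filtered with filterByExpr and compared, 24 m over 3 m, by edgeR 4.0.16 (quasi-likelihood test) in R 4.3.3 on the whole table, with no covariate. The study's methods name no test for the counts. Alternatives were DESeq2 1.42.0, limma-voom and limma 3.58.1 on log2(FPKM + 1) or log2(FPKM + 0.1) of genes with a mean of at least 0.5 FPKM, other size factors and filters, a replicate block and each library left out. DESeq2 without 3 m replicate 2 and GC offsets (a smooth per library on the GC content of the longest GENCODE vM21 transcript, matched by identifier) were added after seeing the data. The GC offsets were used with library totals and without TMM factors. The scripts were tested on simulated data. GENCODE vM21 is on GRCm38, so none of its coordinates is given.

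Values per library are printed for genes with an unadjusted p under 0.05, genes whose ages did not overlap and the most abundant gene per length of each role. Of each list of other pathway genes, up to 3 with the smallest p are named, with values per library for those at an unadjusted p under 0.05 or without overlap. Further genes are marked as chosen after their values were seen. The same holds for *Map1lc3b*, *Atg7*, *Atg14*, *Atg4a*, *Ncoa4*, *Atg9b*, *Rubcnl*, genes named at the end of a range and genes named only for their library order. The members and lists were chosen with earlier results of these data known. The coding end of 1 ATG8 gene is not reported here.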

Additional observations from a re-analysis of the deposited data

How the results depend on the processing

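No autophagy gene was called under any of the 18 alternatives run. Of the 22 genes chosen for description by rule, many were taken for non-overlapping ages or a small p in these same data. That choice favors a kept direction, so the count that follows is no measure of robustness. For these 22 genes, 387 of 396 fold changes under an alternative kept their direction. The exceptions were *Atg3* (0.047 after the GC correction), *Atg13* (-0.13 after the GC correction, -0.077 in DESeq2 without 3 m replicate 2, and -0.070 to 0.10 with 1 library left out), *Wipi2* (-0.044 after the GC correction, -0.053 in DESeq2 without 3 m replicate 2, and -0.044 to 0.28 with 1 library left out) and *Gabarap* (-0.35 to 0.089 with 1 library left out). The cause was not tested.

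Over the whole table the called genes numbered 0 in edgeR, 207 with no filter on low counts, 314 in DESeq2, 455 in DESeq2 without 3 m replicate 2, 1 in limma on log2(FPKM + 1), 1 on log2(FPKM + 0.1), and 0 to 85 with 1 library left out (85 without 3 m replicate 2). Autophagy genes at an unadjusted p under 0.05 numbered 1, against 2 with no filter and 0 with the replicate block. For the fits with no filter and with the replicate block the share of all genes was not counted, so no background stands beside them. With 1 library left out the number was 0 to 4. It was 0 without 24 m replicate 1, 0 without 24 m replicate 2 and 4 of 34 without 3 m replicate 3, against 2.77%, 2.43% and 13.3% of all genes. Those whose ages did not overlap numbered 8, against 4 after the GC correction and 8 to 17 with 1 library left out. There were 15 of 34 without 24 m replicate 3 (against 26.6% of all genes) and 17 of 34 without 3 m replicate 3 (against 34.6%). Without 24 m replicate 1 or replicate 2 there were 8 (against 19.8% and 21.0%). With 6 libraries the share of all genes was 15.1%. The cause of these differences was not tested.

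Deviations of same-numbered libraries from their age means correlated at 0.01, -0.04 and -0.08, and those of libraries with different numbers at -0.03 to 0.07. With 3 libraries per age, these values cannot settle whether the replicate numbers pair the libraries. The replicate block called 0 genes, as did the fit without it. With 3 pools per age, 15 of the 34 intervals reach past 1 log2 unit, so a change of this size lies within them.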
